A study of Homo sapiens with 2 samples.

Results

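The 4 human FOXO genes, FOXO1, FOXO3, FOXO4 and FOXO6, were examined for called peaks of a FLAG immunoprecipitation aimed at epitope-tagged FOXO3. Members were the called FLAG peaks with a summit in a fixed hg19 window around each gene, and 3 of the 9717 peaks in the list met this rule. FOXO1, FOXO3 and FOXO4 had 1 peak each, and FOXO6 counted as a member with no called peak. The series holds 2 libraries from U87MG, an established human glioblastoma cell line, one a FLAG immunoprecipitation and the other input chromatin. Both came from cells whose labels give the genotype as WT and the treatment as LY294002, an inhibitor of phosphoinositide 3-kinase, so every value below belongs to treated cells. The approach was CETCh-seq, in which the cell's own copy of a factor is given an epitope by CRISPR editing and is then pulled down through that epitope. The labels do not say whether the edited cells were 1 clone or whether the input came from them. The WT label does not mention the edit. There is no other FLAG immunoprecipitation, from cells without the tag, to compare with. With 1 ChIP library there is no replicate check and no difference between conditions was tested. No RNA was measured here, so the peaks give positions and enrichments and not expression of the FOXO genes.

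FOXO proteins are forkhead transcription factors that act downstream of insulin and growth factor signalling. Active phosphoinositide 3-kinase leads to AKT, which phosphorylates FOXO1, FOXO3 and FOXO4 and so favours their export from the nucleus, and inhibition of the kinase lets them return and bind DNA. FOXO1 is known for its part in metabolic control, FOXO3 for stress resistance, cell cycle arrest and survival decisions, and FOXO4 for related roles in stress and senescence. FOXO6, expressed mainly in brain, is less subject to nuclear export than the others. Transcription of FOXO genes has been described as responsive to FOXO3 itself, and the comparison asked where called peaks lay at these loci.

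Each of the 3 peaks lay upstream of the hg19 5′ end given for its gene. The sequence around the RefSeq start is shown for every member. RefSeq gives these windows on GRCh38.p14, whereas the peaks and 5′ ends are on hg19. Whether a 5′ end matches the RefSeq start was not determined, nor where a peak falls relative to the letters below. A peak upstream of the 5′ end may therefore still overlap a RefSeq start. All 4 genes had an entry. The forkhead motif GTAAACA, its core AAACA (which also lies inside GTAAACA) and the insulin response element CAAAACAA (which contains the core too) were searched on both strands from 250 bases before to 50 bases after the start. The first 280 bases of each window are printed along the gene's own strand, from 250 bases before the start to the first 30 transcribed bases, with motif matches in capitals. The printed windows are chr13:40666612-40666891 (minus strand) for FOXO1, chr6:108559575-108559854 (plus) for FOXO3, chrX:71095601-71095880 (plus) for FOXO4 and chr1:41361184-41361463 (plus) for FOXO6.
FOXO1: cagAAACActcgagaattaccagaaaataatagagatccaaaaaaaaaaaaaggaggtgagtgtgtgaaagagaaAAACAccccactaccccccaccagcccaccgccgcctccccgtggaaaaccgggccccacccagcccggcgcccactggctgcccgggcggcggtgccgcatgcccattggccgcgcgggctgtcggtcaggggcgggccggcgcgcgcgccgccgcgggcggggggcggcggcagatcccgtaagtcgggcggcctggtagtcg
FOXO3: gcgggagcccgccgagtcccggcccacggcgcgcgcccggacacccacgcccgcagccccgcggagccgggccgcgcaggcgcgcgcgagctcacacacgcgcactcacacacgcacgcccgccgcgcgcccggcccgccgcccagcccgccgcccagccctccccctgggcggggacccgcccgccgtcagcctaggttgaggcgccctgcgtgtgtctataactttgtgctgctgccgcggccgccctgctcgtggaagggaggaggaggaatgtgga
FOXO4: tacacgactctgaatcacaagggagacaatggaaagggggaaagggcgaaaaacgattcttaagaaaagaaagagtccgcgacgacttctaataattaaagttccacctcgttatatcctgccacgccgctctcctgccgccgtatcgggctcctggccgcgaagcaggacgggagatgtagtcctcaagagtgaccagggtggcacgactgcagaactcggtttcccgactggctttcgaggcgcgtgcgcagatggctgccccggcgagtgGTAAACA
FOXO6: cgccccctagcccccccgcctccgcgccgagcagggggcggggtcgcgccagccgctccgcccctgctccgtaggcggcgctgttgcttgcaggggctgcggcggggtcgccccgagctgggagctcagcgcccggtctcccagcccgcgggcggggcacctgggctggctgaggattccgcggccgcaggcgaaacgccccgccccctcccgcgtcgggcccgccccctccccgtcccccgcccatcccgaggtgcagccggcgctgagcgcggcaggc

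Only the FOXO4 window held the full forkhead motif, in 1 copy that began 23 bases and ended 29 bases past the start. Of all 35116 RefSeq promoter windows of this length, 3.42% held GTAAACA on either strand. The FOXO1 window held 2 copies of the core AAACA, which began 247 and 175 bases before the start, and 44.4% of all windows held at least 1. None of the 3 motifs was found in the FOXO6 window or in the window of the most upstream FOXO3 start. RefSeq lists 3 further FOXO3 starts, lying 1092, 1340 and 28948 bp downstream of that one. Their windows held 2, 0 and 3 copies of AAACA and no copy of GTAAACA. CAAAACAA was in none of the 7 windows of these genes and in 1.68% of all windows. The FOXO windows differed in base composition, with a G and C content of 68.0% for FOXO1, 78.3% for the first FOXO3 start, 56.3% for FOXO4 and 81.3% for FOXO6, against a median of 58.7% over all windows. A match is a description of the letters and not evidence of a bound site.

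Called peaks were found at FOXO1, FOXO3 and FOXO4, and all 3 summits were upstream of the 5′ end and within 5 kb of it. As a background, 3.04% of 10 kb tiles of chromosomes 1 to 22 and X held a called summit. For tiles as wide as the gene windows the shares were 27.1% for FOXO1 (132 kb), 28.8% for FOXO3 (145 kb), 7.80% for FOXO4 (28 kb) and 11.3% for FOXO6 (43 kb). Over the gene's own chromosome they were 47.5% on chromosome 13, 25.3% on 6, 1.47% on X and 12.2% on 1. These tiles cover genes and gene-poor sequence alike, so they are no measure of how often the 5′ end of a gene holds a peak. In none of the 4 windows was a summit called at or downstream of the 5′ end given for the gene, and none held a second peak.

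**Figure D1:**
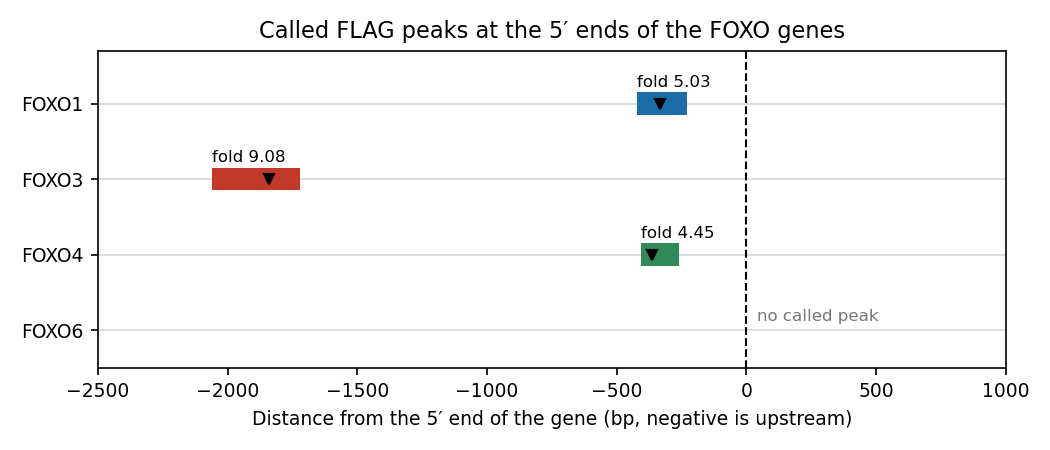
Position of each called FLAG peak relative to the 5′ end of its gene in bp, with negative values upstream. Bars span the called peak, black triangles mark the summit and the deposited fold is printed above each bar; the FOXO1 and FOXO4 summits lie 333 and 364 bp upstream, the FOXO3 summit 1841 bp upstream, and FOXO6 has no called peak.

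FOXO3, the gene of the tagged factor itself, carried the strongest of the 3 peaks. The peak spanned chr6:108878965-108879307 (hg19), 343 bp in all, and its summit at 108879185 lay 1841 bp upstream of the 5′ end at 108881026. At the summit 75 FLAG tags were piled up over a background of 7.37 tags, both worked out from the fold and p-value that the authors deposited. The deposited fold enrichment, which is pileup plus 1 over background plus 1, was 9.08, with a 95% exact Poisson interval from 7.16 to 11.3. Its −log10 q was 43.6. By fold the peak ranked 329 of 9717, above 96.6% of the list, and its interval covers ranks from 144 to 717. On chromosome 6 it ranked 14 of 427 peaks by fold and 11 by q, where the median fold was 4.08. The whole peak lay at least 1719 bp from the 5′ end, so it is upstream of the position taken for the start and not over it. A −log10 q of 10 or more was seen in 26.5% of the peaks of chromosome 6.

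FOXO1, which encodes the family member best known from insulin-responsive tissues, had a weaker peak closer to its start. It spanned chr13:41240964-41241155, 192 bp, and its summit at 41241067 lay 333 bp upstream of the 5′ end at 41240734, the gene being on the minus strand. The pileup was 31 tags over a background of 5.36 tags. The fold was 5.03 (95% Poisson interval 3.47 to 7.07) and the −log10 q was 10.4. It ranked 2106 of 9717 by fold, above 78.3% of the list, and counting error alone allows ranks from 767 to 6728. By pileup it ranked 3251 of the whole list. On chromosome 13 it ranked 81 of 1080 by fold, above a chromosome median fold of 3.65 and pileup of 18 tags. That chromosome was dense in called peaks, with 11.6 per Mb outside the window against 3.33 over the rest of the list. Many of them were weak, so the rank there looks higher than in the whole list. Only 8.61% of the peaks of that chromosome had a −log10 q of 10 or more, as this one did, against 25.5% of the whole list.

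FOXO4, the X-linked member, had the weakest of the called peaks. The peak spanned chrX:70315597-70315746 and its summit at 70315641 lay 364 bp upstream of the 5′ end at 70316005. Its width of 150 bp is the smallest in the list, shared by 643 peaks (6.62%). The summit held 20 tags over a background of 3.72 tags, for a fold of 4.45 (95% Poisson interval 2.80 to 6.75) and a −log10 q of 5.63. It ranked 3164 of 9717 by fold but 4845 by q and 6579 by pileup, and 31 peaks of the list had this same fold and q. The fold interval takes in most of the list, with ranks from 861 to 9001. Among the 82 peaks of chromosome X it ranked 34 by fold and 40 by q, close to the middle, where the median fold was 4.29 and the median pileup 21 tags. A −log10 q of 10 or more was seen in 17.1% of the X peaks and not in this one.

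**Figure D2:**
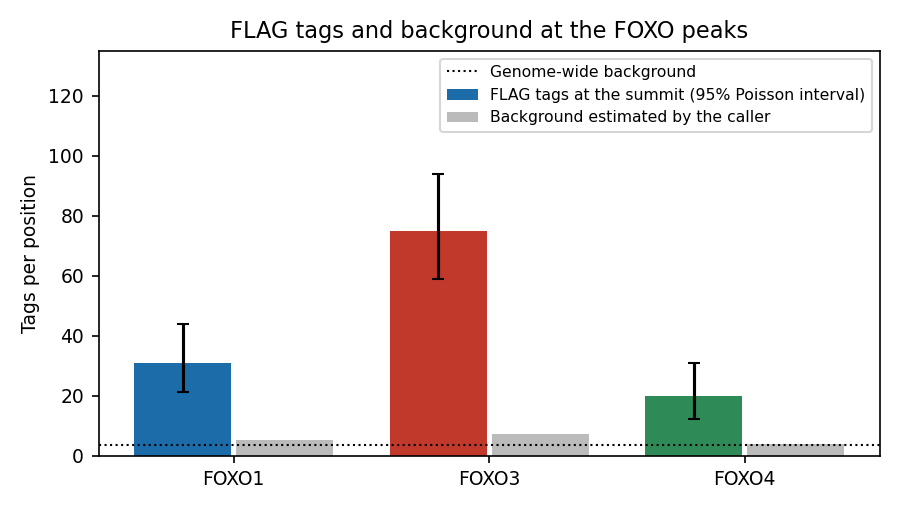
FLAG tags at the summit (coloured bars, with 95% exact Poisson intervals) and the background estimated by the caller (grey bars) for the 3 FOXO peaks, in tags per position. The dotted line is the genome-wide background of 3.65 tags; pileups of 31, 75 and 20 tags stand over backgrounds of 5.36, 7.37 and 3.72 tags at FOXO1, FOXO3 and FOXO4.

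All 3 peaks had a −log10 q of 5 or more, as did 55.6% of the list, and only FOXO3 and FOXO1 had a fold of 5 or more, as did 22.1%. The order of the folds was FOXO3, then FOXO1, then FOXO4, and only the first step exceeded counting error at the 95% level. The FOXO3 fold was 1.80 times that of FOXO1 and 2.04 times that of FOXO4, and its 95% interval lay above both of theirs. At 99% its interval, from 6.64 to 12.1, overlapped those of FOXO1 (3.07 to 7.77) and FOXO4 (2.40 to 7.55). The ratio of pileup over background, with the background held fixed, was 1.76 for FOXO3 over FOXO1 (95% exact interval 1.14 to 2.77) and 1.89 for FOXO3 over FOXO4 (1.14 to 3.28). For FOXO1 over FOXO4 it was 1.08 with an interval from 0.594 to 1.99, so the order of these genes was not resolved at this depth. The intervals cover counting error only. They leave out differences between cultures, the error of the background and the choice of the summit as the highest point of a peak.

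**Figure D3:**
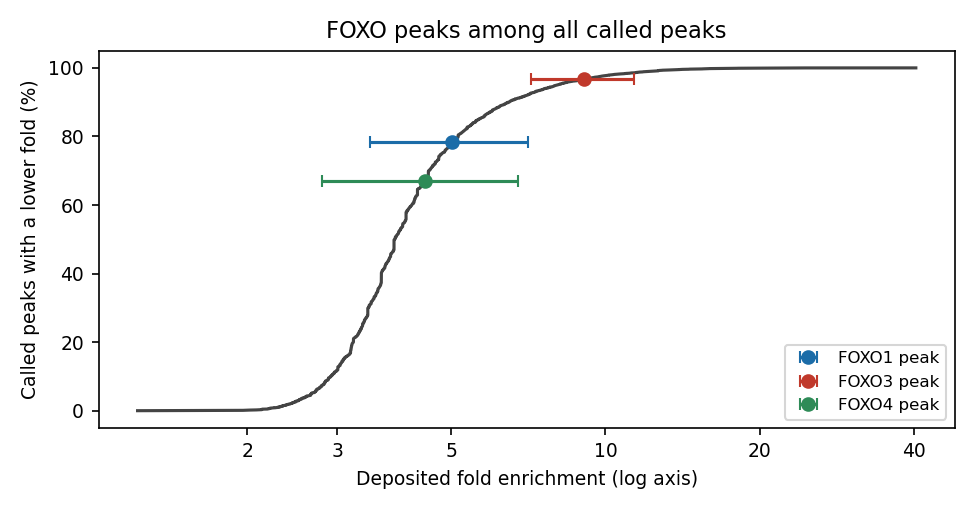
Share of called peaks with a lower deposited fold (vertical axis, percent) against the fold (horizontal log axis) for all 9717 peaks (line), with the 3 FOXO peaks as points and their 95% exact Poisson intervals as horizontal bars. FOXO3 stands above 96.6% of the list, FOXO1 above 78.3% and FOXO4 above 67.1%, and the intervals of FOXO1 and FOXO4 overlap.

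The background was highest at FOXO3, lower at FOXO1 and lowest at FOXO4, the same order as the pileups. Each was a whole multiple of the value that 1 control tag gives in a window of the caller. At FOXO3 it equalled 528 control tags in 10 kb, 2.02 times the genome-wide level of 261. At FOXO1 it equalled 384 control tags in 10 kb, 1.47 times that level. At FOXO4 it equalled 4 control tags at the summit and was 1.02 times the genome-wide background, so the 10 kb around it did not hold more than 267 control tags. The FOXO3 background was higher than in 68.9% of the list and the FOXO4 background higher than in 19.8%. Since the fold divides by this background, the distance between the peaks is larger without it. Over the genome-wide background of 3.65 tags the folds would be 16.3 at FOXO3, 6.88 at FOXO1 and 4.51 at FOXO4. What raised the control coverage at FOXO3 and FOXO1 was not tested.

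The pileups of the 3 peaks were set beside those of all called peaks at a like background. Each such group includes the FOXO peak itself, so its pileup could not lie below the smallest there. Among the 607 peaks with a background within 5% of that of FOXO3, the smallest called pileup was 20 tags and the median 30, against 75 at FOXO3. For FOXO1 the 872 such peaks had a minimum of 16 and a median of 25 tags, against 31. For FOXO4 the 2767 such peaks had a minimum of 13 and a median of 18 tags, against 20. The FOXO4 peak was thus 7 tags above the smallest one called and, by width, at the shortest length in the list.

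FOXO6 had no called summit between 41817000 and 41860000 on chromosome 1. The nearest summits lay 358 kb upstream of its 5′ end at 41827603, with a fold of 3.57, and 434 kb downstream, with a fold of 4.40. No peak of the list had a pileup under 13 tags, and the lowest fold at the genome-wide background was 3.01. That floor holds only at the genome-wide background, and at higher backgrounds folds down to 1.22 were listed. The pileup and background at FOXO6 itself were not analysed here. The absence of a called peak is therefore not a measure of absent binding.

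The genes differed in how many other called peaks surrounded them. FOXO3 had 4 other called peaks within 1 Mb of its 5′ end, with folds from 3.57 to 5.80, all below its own 9.08, and the nearest was 442 kb away. FOXO1 had 9 others, and 2 of them exceeded its fold of 5.03, one 431 kb downstream with a fold of 7.98 and one 618 kb upstream with 6.51. FOXO6 had 4 others with folds from 3.57 to 4.40, none with a −log10 q of 10 or more. FOXO4 had none, and its nearest neighbours on chromosome X lay 1525 and 5494 kb away. Of the 82 peaks of chromosome X, 12 (14.6%) had no other within 1 Mb, against 98 of 9670 (1.01%) on chromosomes 1 to 22 and X. Over these chromosomes the median was 9 others per peak, with quartiles of 6 and 16. The 9 others of the FOXO1 peak equalled that median, and the 4 of the FOXO3 peak lay below the lower quartile. Their own chromosomes differed in density. Outside the gene window, chromosome 13 held 11.6 called peaks per Mb and chromosome 6 held 2.52, against 3.33 over the rest of the list. The FOXO1 count is thus low against the mean density of its chromosome. The number of neighbours of a typical chromosome 13 peak was not analysed here.

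**Figure D4:**
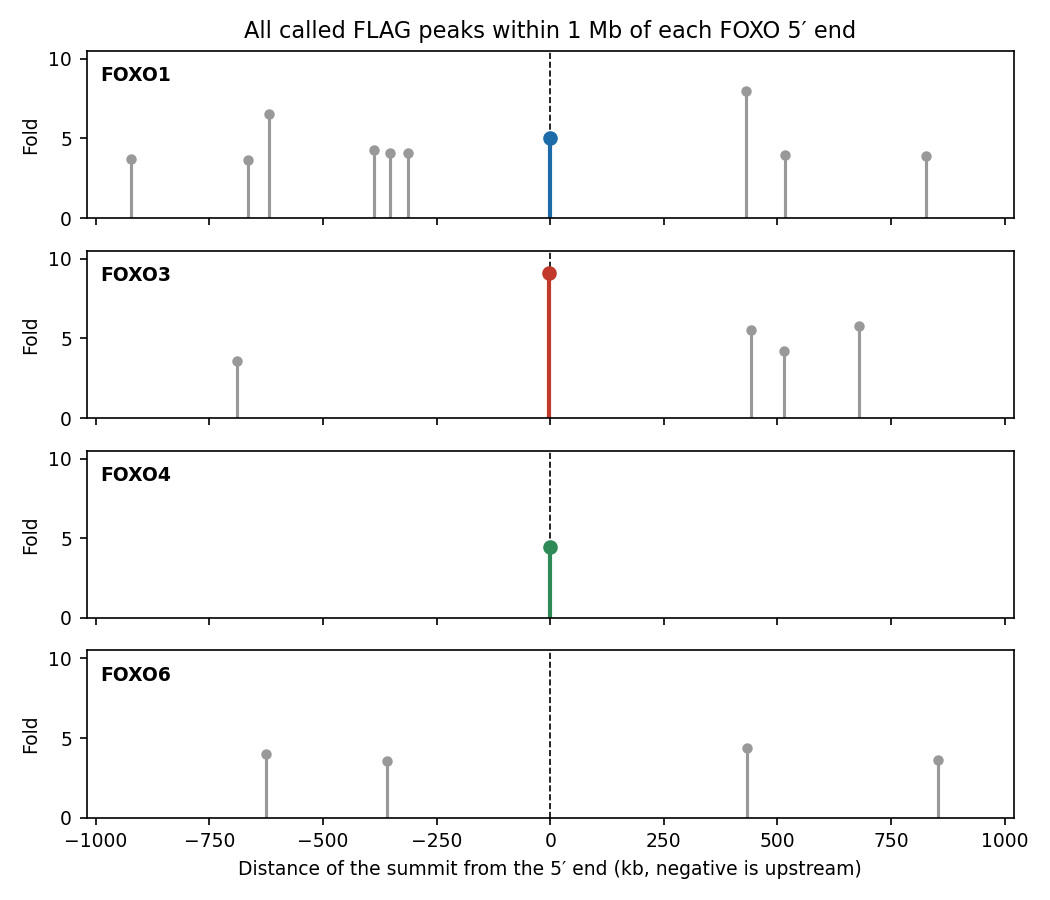
Deposited fold of every called FLAG peak (vertical axis) within 1 Mb of the 5′ end of each FOXO gene, against the distance of its summit in kb along the gene's strand. Coloured stems are the FOXO peaks and grey stems the other peaks; the FOXO3 peak is the highest of 5, the FOXO1 peak the third of 10, the FOXO4 peak is alone and FOXO6 has only 4 distant peaks.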

How the data were processed

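Chromatin of U87MG cells was sequenced as 1 FLAG ChIP and 1 input library. The peak list of the FLAG library was analysed. Per the submitters' processing notes, Trimmomatic, HISAT2 and MACS2 were used with the build hg19. Versions, roles, read filters (including multiply mapped reads), the control used and the threshold were not given in the sources used here. For each peak the authors deposited a fold enrichment (a ratio), a −log10 p-value, a −log10 q-value and a score, and these are the values of their caller. The list also gives the summit as an offset, per the layout of the file the authors deposited. The lowest −log10 q in it was 1.31.

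The pileup and background of each peak were solved from the fold and p (pileup plus 1 over background plus 1, and the upper Poisson tail above the pileup). The deposited −log10 p was returned within 0.001 in all 9717 peaks. On data simulated with the same formulas, the true pileup came back in 1618 of 1618 peaks. That checks the solving and cannot show that the caller used these formulas. The lowest common background, 3.65 tags in 1859 peaks, was taken as the genome-wide one. Higher backgrounds were checked in 7815 peaks, leaving out the largest ones. All of those checked were whole multiples of 0.931 tags (1 control tag) or of the step of a 10 kb window. Tags were taken as 150 bp and the tolerance was 2e-04 tags. Total reads per library were not analysed here, so depth is known only as this background.

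Gene windows and 5′ ends were given in hg19 as part of the choice of members. Starts are counted from 1. The named genes were the 4 FOXO genes, and all called peaks in their windows are reported. Members, windows, motifs and lists were chosen with earlier results of these data known. A list of other phosphoinositide 3-kinase and FOXO pathway genes was not counted, since the gene table used (RefSeq, GRCh38.p14) is of another build. No test was run. Intervals are exact Poisson intervals of the pileup (95%, with 99% as an alternative). Other alternatives were stricter thresholds, other windows, merging, other rankings and the genome-wide background. Computations used Python 3.11.15, numpy 2.4.6 and scipy 1.17.1.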

Additional observations from a re-analysis of the deposited data

How the results depend on the processing

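Over 15 values and 45 alternatives, 39 left the value within its counting interval, on the same side of the interval comparison or, for counts, within 1.5 times. These intervals are wide: the FOXO1 window had 2.28 times the peaks per Mb of the rest of the list (0.0577 to 12.7) but 0.655 times those of the rest of chromosome 13, which turns the direction, on 1 peak. Several could hardly change, since each window held at most 1 peak. Over the genome-wide background the FOXO3 fold was 16.3 in place of 9.08. The FOXO4 window, with 10.7 times the peaks per Mb of the rest of the list, went to 0 at a −log10 q of 10 or more and to 67.3 times against the rest of chromosome X, each resting on 1 peak. With 99% intervals the folds of FOXO3 and FOXO1 (ratio 1.80) and of FOXO3 and FOXO4 (ratio 2.04) overlapped. The ratio of pileup over background of FOXO3 to FOXO4, 1.89, then had an interval from 0.995 to 3.91, while that of FOXO3 to FOXO1 ran from 1.01 to 3.19. These ratios, with their intervals, were added after seeing the data. The number of FOXO peaks was 3 at a −log10 q of 5, and 2 at a −log10 q of 10, at a fold of 5 or within 1 kb of a 5′ end. No paired analysis was possible because there is 1 ChIP library and no result comes from a test. Depth limits the weaker peaks most: 20 and 31 tags give fold intervals that overlap each other and much of the list.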
